A study of Mus musculus with 2 samples.

Results

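A set of 10 genes that mark endothelial cells, the inner lining of blood and lymph vessels, was followed in RNA-seq libraries from whole testes of 9-day-old mice. They are *Pecam1*, *Cdh5*, *Kdr*, *Flt1*, *Tek*, *Tie1*, *Egfl7*, *Emcn*, *Esam* and *Vwf*, 10 of the 39695 gene entries in the files, and were picked out by gene symbol as known markers, with earlier results of these data known. The comparison was between 1 library from control testes and 1 library from *Bcas2F/-;Vasa-Cre* testes, all labelled C57BL/6 and stated in the study's methods to be kept on a mixed background with 129. Control males were *Bcas2F/-* by the study's methods, so that controls, too, had only 1 working copy of *Bcas2*, a floxed one beside a deleted one. *Vasa-Cre* drives recombination of that copy in the germ line. The endothelial cells were thus *Bcas2F/-* by design in both groups, and how many mice were pooled for a library is not given in the sources used here. Values are RPKM, reads counted for a gene divided by its length and by the reads counted in its library. Library sizes recovered from the RPKM steps were 19918750 reads for control and 19331687 reads for *Bcas2F/-;Vasa-Cre* testes. With 1 library per genotype there is no replicate check of any difference and no p-value is given. Intervals are 95% intervals that cover counting error only and leave out the spread between animals. *Bcas2*, the targeted gene, was at 39.5 RPKM in the control and 25.7 RPKM in the *Bcas2F/-;Vasa-Cre* library, a log2 ratio of −0.60 on the scale of RPKM + 1.

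Blood vessels of the testis run in the interstitium between the seminiferous tubules, outside the blood-testis barrier, and carry gonadotropins in and testosterone out. Endothelial cells hold together through VE-cadherin (*Cdh5*), respond to VEGF through KDR and FLT1 and to angiopoietins through TEK, and keep von Willebrand factor (*Vwf*) in granules for release after injury. *Egfl7*, which encodes a secreted protein of the vessel wall, also hosts the endothelial microRNA miR-126.

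The mature microRNA within *Egfl7* is printed because *Egfl7* differed most among the 10 genes and because its hosted microRNA is a separate entry of the files, listed at 0 in both libraries. It lies at chr2:26591402-26591423 on the plus strand of GRCm38.p6, with the seed, bases 2 to 8, in capitals. The 0 cannot be read as absence of the mature microRNA. All 73 bases of the entry lie in *Egfl7* exons, and how shared reads were counted is not given.

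mmu-miR-126a-3p: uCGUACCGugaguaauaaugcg

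RefSeq start sites were matched for 6 of the 10 genes, at 8 start sites in all (*Egfl7* 3, and *Kdr*, *Flt1*, *Tek*, *Tie1* and *Emcn* 1 each). Printed are the 100 bases upstream of the start for the receptors *Kdr*, *Flt1* and *Tek* and for both downstream start sites of *Egfl7*, whose RPKM adds the transcripts of all its starts together. Capitals mark GGAA or its reverse complement, the core letters bound by ETS factors such as ERG and FLI1, which are abundant in endothelium. All are in GRCm38.p6, 5′ to 3′ on the gene's strand: *Kdr* at chr5:75978456-75978555 (minus), *Flt1* at chr5:147726012-147726111 (minus), *Tek* at chr4:94739189-94739288 (plus), and *Egfl7* at chr2:26583765-26583864 and chr2:26586536-26586635 (plus).

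Kdr: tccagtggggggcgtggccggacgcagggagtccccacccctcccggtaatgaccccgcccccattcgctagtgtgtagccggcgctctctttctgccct

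Flt1: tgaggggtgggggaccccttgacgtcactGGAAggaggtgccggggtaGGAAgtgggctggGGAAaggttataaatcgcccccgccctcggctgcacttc

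Tek: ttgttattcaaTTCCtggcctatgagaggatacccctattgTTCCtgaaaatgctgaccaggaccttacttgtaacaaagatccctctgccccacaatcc

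Egfl7, middle start: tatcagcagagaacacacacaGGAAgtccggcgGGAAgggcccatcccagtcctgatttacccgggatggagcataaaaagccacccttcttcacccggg

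Egfl7, last start: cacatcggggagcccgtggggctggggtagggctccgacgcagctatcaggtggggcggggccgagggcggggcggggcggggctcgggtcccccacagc

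Over the whole window of 300 bases, from 250 before to 50 after a start, GGAA on either strand was in 8 of the 8 member windows and in 96.0% of the 32817 RefSeq windows. The longer AGGAAG, which contains GGAA, was in 5 of the 8 and in 35.4% of all windows. The TATA letters TATAAA were in 1 of the 8, that of *Flt1*, and in 13.6% of all. GGGCGG, the GC box, was in 3 of the 8 and in 35.6% of all. These are matches of letters only, and the 3 windows of *Egfl7* belong to the same gene.

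All 10 endothelial genes were detected in both libraries, with 108 to 1485 reads per gene and library, and all passed the filter of a mean RPKM of at least 1. None differed by more than 1.5-fold between *Bcas2F/-;Vasa-Cre* and control testes. Among the 14831 genes over that filter, 1.69% lay beyond 1.5-fold on the lower side and 1.57% on the higher side, so that a count of 0 in 10 genes is near the background. Of the 10 genes, 5 were below 0 on the log2 scale, against 46.3% of all genes, and their median log2 ratio of RPKM + 1 was −0.013, against 0.015 for all genes. Their RPKM added up to 73.7 in the control and 68.8 in the *Bcas2F/-;Vasa-Cre* library. The largest part of that difference was *Egfl7*, at −4.29 RPKM. The median distance from 0 was 0.11 for the 10 genes and 0.12 for all genes. Because whole testes were sequenced, the values do not separate the number of endothelial cells from the RNA per endothelial cell.

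**Figure D1:**
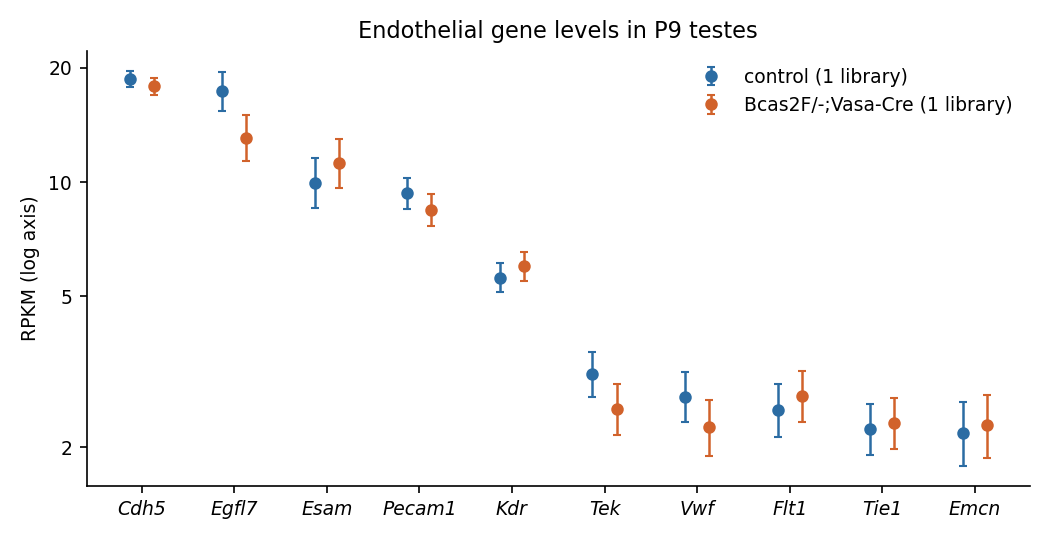
RPKM (log axis) of the 10 endothelial genes in the control library (blue) and the *Bcas2F/-;Vasa-Cre* library (orange), 1 library each, with exact Poisson 95% intervals of the reads, which cover counting error only. Mean levels run from 18.3 RPKM for *Cdh5* to 2.23 RPKM for *Emcn*, and of the 10 pairs only those of *Egfl7* do not overlap in their intervals.

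None of the 3 junction genes was separated between the libraries. *Cdh5*, on chromosome 8 from 104101625 to 104144511, encodes the cadherin of endothelial adherens junctions and is largely restricted to endothelium. It stood at 18.7 RPKM (1485 reads) in the control and 17.9 RPKM (1377 reads) in the *Bcas2F/-;Vasa-Cre* library. The log2 RPKM ratio was −0.066, with an interval from −0.17 to 0.041, the narrowest of the 10. *Pecam1*, on chromosome 11 from 106654217 to 106750628, encodes an adhesion receptor that is also present on platelets and leukocytes. Its RPKM was 9.34 (460 reads) in the control and 8.45 (404 reads) in the *Bcas2F/-;Vasa-Cre* library, a ratio of −0.14 with an interval from −0.34 to 0.052. *Esam*, on chromosome 9 from 37528078 to 37538319, encodes a tight junction protein of endothelium and platelets. It was at 9.96 RPKM (171 reads) in the control and 11.2 RPKM (187 reads) in the *Bcas2F/-;Vasa-Cre* library, the highest ratio among the 10 genes at 0.17, with an interval from −0.13 to 0.48. All 3 intervals include 0, so that any difference in the junction genes was within counting error.

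The VEGF receptors stood in a similar proportion to each other in both libraries. *Kdr*, on chromosome 5 from 75932827 to 75978458, encodes the main signalling receptor for VEGF-A. It was at 5.60 RPKM (507 reads) in the control and 5.99 RPKM (527 reads) in the *Bcas2F/-;Vasa-Cre* library, a log2 ratio of 0.099 with an interval from −0.080 to 0.28. *Flt1*, on chromosome 5 from 147561604 to 147726011, binds VEGF-A tightly with weak kinase activity and also gives a soluble form, which gene-level values do not separate. Its RPKM was 2.51 (159 reads) in the control and 2.73 (168 reads) in the *Bcas2F/-;Vasa-Cre* library, a log2 ratio of 0.12 with an interval from −0.20 to 0.44. The RPKM of *Kdr* was 2.23 times that of *Flt1* in the control and 2.19 times in the *Bcas2F/-;Vasa-Cre* library. With 159 and 168 reads for *Flt1*, a moderate change of this proportion would not be resolved.

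The angiopoietin receptor *Tek* was lower, and its relative *Tie1* was at similar levels in both libraries. *Tek*, on chromosome 4 from 94739289 to 94874976, encodes TIE2, which binds the angiopoietins. It was at 3.11 RPKM (213 reads) in the control and 2.53 RPKM (168 reads) in the *Bcas2F/-;Vasa-Cre* library, 18.7% lower. The log2 ratio was −0.30, and its interval from −0.60 to −0.00066 ended just below 0. *Tie1*, on chromosome 4 from 118471191 to 118490061, encodes a receptor that acts with TEK. Its values were 2.24 RPKM (166 reads) in the control and 2.32 RPKM (167 reads) in the *Bcas2F/-;Vasa-Cre* library, a log2 ratio of 0.052 with an interval from −0.27 to 0.37. *Tek* was 1.39 times *Tie1* in the control and 1.09 times in the *Bcas2F/-;Vasa-Cre* library. The intervals of the *Tek* and *Tie1* ratios overlap, so that a difference between the receptors was not resolved at this depth.

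*Egfl7* showed the largest difference of the 10 genes. It lies on chromosome 2 from 26580014 to 26593120, and was at 17.4 RPKM (279 reads) in the control and 13.1 RPKM (204 reads) in the *Bcas2F/-;Vasa-Cre* library, 24.7% lower. The log2 RPKM ratio was −0.41 with an interval from −0.68 to −0.14, which lies wholly below 0. On the scale of RPKM + 1 it was −0.38, and 4.60% of all genes over the filter were at or below this value. *Egfl7* is also the member with the most complex locus, with 19 annotated transcripts. Of its 3581 exon bases, 264 (7.37%) are shared with the entry *Gm20532*, listed at 0 in both libraries, 73 with *Mir126a*, also listed at 0, and 64 with *Agpat2* on the opposite strand, at 9.10 and 10.2 RPKM. How the counting handled reads in shared exons, and whether it used strand, is not given in the sources used here. None of the other 9 genes shares exon bases with another annotated gene.

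The remaining members are a plasma protein and a surface sialomucin. *Vwf*, on chromosome 6 from 125546774 to 125686679, encodes the glycoprotein that tethers platelets and is also made by megakaryocytes. It was at 2.72 RPKM (172 reads) in the control and 2.26 RPKM (139 reads) in the *Bcas2F/-;Vasa-Cre* library, a log2 ratio of −0.26 with an interval from −0.60 to 0.067. *Emcn*, on chromosome 3 from 137341067 to 137432185, encodes endomucin of veins and capillaries. It had the fewest reads, 108 in the control and 110 in the *Bcas2F/-;Vasa-Cre* library, at 2.18 and 2.29 RPKM. Its log2 ratio of 0.070 had an interval from −0.33 to 0.47, the widest of the 10, so that this gene was the least precisely measured.

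**Figure D2:**
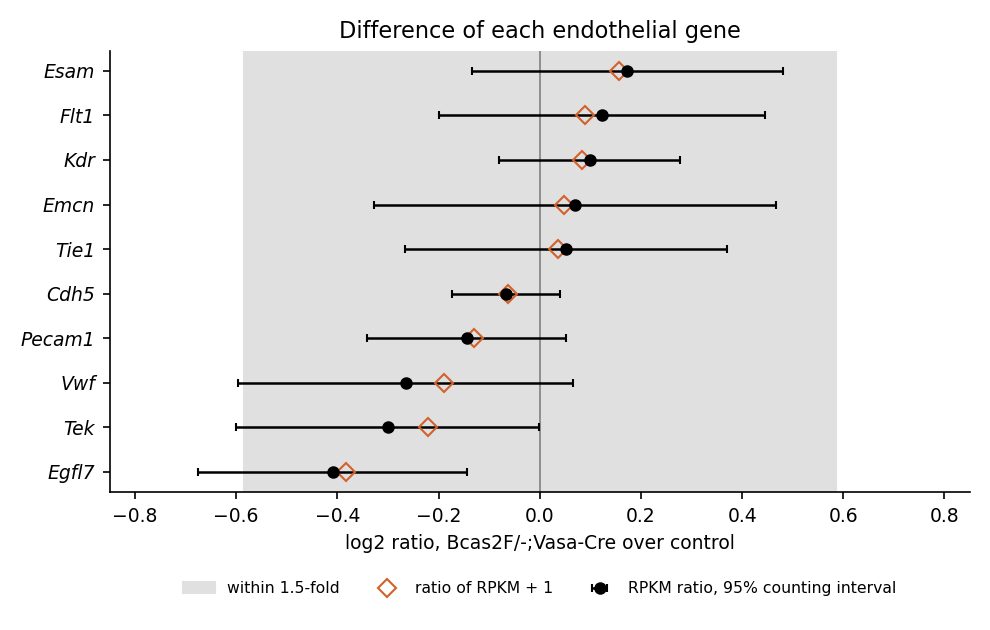
Log2 ratio of *Bcas2F/-;Vasa-Cre* over control testes for each endothelial gene: black points are RPKM ratios with 95% Clopper-Pearson counting intervals, open diamonds are ratios of RPKM + 1, and the grey band is 1.5-fold in either direction. All points lie inside the band, from −0.41 for *Egfl7* to 0.17 for *Esam*, and the intervals of *Egfl7* and *Tek* end below 0.

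Over the 10 genes, the counting interval lay wholly below 0 for 2, *Egfl7* and *Tek*, and wholly above 0 for 0. Among the 14437 genes over the filter with recovered reads, 17.9% had an interval wholly below 0 and 19.9% wholly above 0. An interval that misses 0 compares these libraries, not the genotypes, and 2 of 10 is near the background.

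The order of the levels was much alike in both libraries. In the control it ran from *Cdh5* through *Egfl7*, *Esam*, *Pecam1*, *Kdr*, *Tek*, *Vwf*, *Flt1* and *Tie1* to *Emcn*. The first 5 places were held by the same genes in the *Bcas2F/-;Vasa-Cre* library, where *Flt1*, *Tek*, *Tie1*, *Emcn* and *Vwf* followed. Of the 9 neighbouring pairs, 6 had overlapping counting intervals in the control, including all pairs from *Tek* down to *Emcn*, and 5 in the *Bcas2F/-;Vasa-Cre* library. Neighbours within the lower 5 places were thus not resolved in either library. *Cdh5* and *Egfl7* overlapped in the control but not in the *Bcas2F/-;Vasa-Cre* library. *Cdh5* was above 57.7% of the genes over the filter in the control and *Emcn* above 14.3%. Levels of different genes also rest on the gene lengths used, and the length implied by the *Cdh5* values was 3986 bases, against a mean transcript length of 2170.5 in GENCODE M21.

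**Figure D3:**
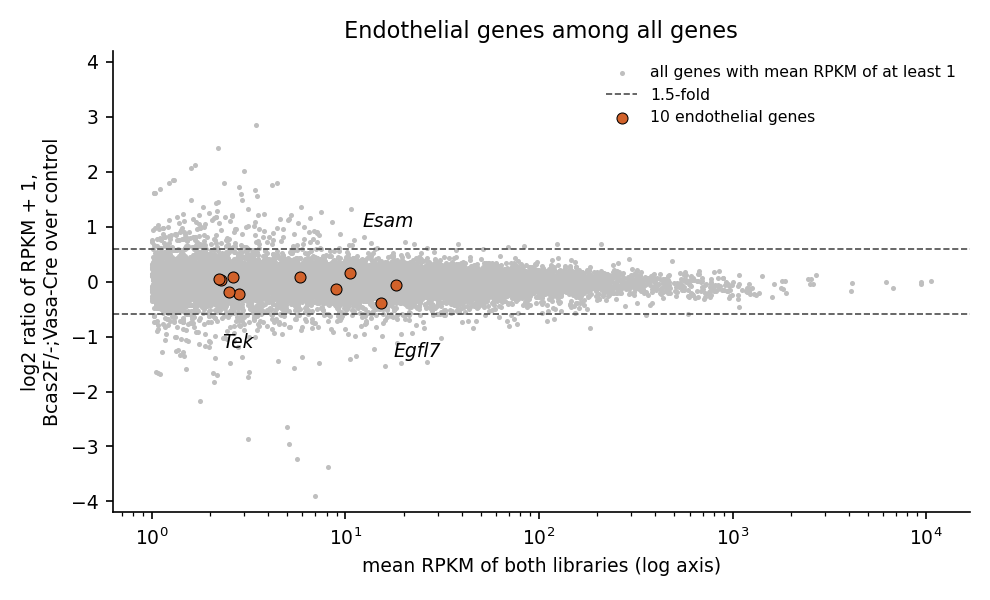
Log2 ratio of RPKM + 1 (*Bcas2F/-;Vasa-Cre* over control) against mean RPKM (log axis) for 14831 genes over the filter (grey), with the 10 endothelial genes in orange and dashed lines at 1.5-fold. The endothelial genes lie between −0.38 and 0.16, inside the dashed lines, whereas the grey points reach −3.90 and 2.85.

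Further genes of endothelium gave a like picture. Of all genes over the filter, 46.3% were below 0, the share beside which the sign counts of these and later lists stand. Of 15 other surface and enzyme genes, 14 passed the filter and none was past 1.5-fold on the RPKM + 1 scale, with 9 below 0 and a median log2 ratio of −0.082. *Cd34*, a sialomucin also carried by interstitial stromal cells, was the highest, at 59.8 RPKM in the control and 65.9 RPKM in the *Bcas2F/-;Vasa-Cre* library. *Plvap*, which forms the diaphragms of fenestrated capillaries, had the lowest ratio of this list, at 2.19 RPKM (88 reads) and 1.41 RPKM (55 reads). Without the pseudocount its log2 RPKM ratio was −0.63, which is past 1.5-fold, with an interval from −1.15 to −0.13. Of 7 transcription factors of endothelium, 5 passed the filter and none was past 1.5-fold. Their median was 0.041, and it was −0.11 without the filter or with a filter of 5 RPKM and −0.082 after rescaling RPKM to a common sum. *Erg*, an ETS factor that maintains endothelial identity, was at 14.5 RPKM in the control and 13.4 RPKM in the *Bcas2F/-;Vasa-Cre* library. *Sox18*, a factor of vessel and lymphatic development, was at 9.24 and 10.1 RPKM.

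Among the ligands and co-receptors, *Vegfa* was higher. This ligand of KDR and FLT1, which is made mostly outside the endothelium, was at 16.1 RPKM (469 reads) in the control and 20.8 RPKM (587 reads) in the *Bcas2F/-;Vasa-Cre* library. The log2 RPKM ratio was 0.37 with an interval from 0.19 to 0.55, within 1.5-fold. *Flt4*, the receptor for VEGF-C and VEGF-D and a marker of lymphatic endothelium, was at 0.847 RPKM (83 reads) and 1.25 RPKM (119 reads), with an interval from 0.15 to 0.99. *Vegfb* was at 18.6 and 17.5 RPKM, *Vegfd* at 11.6 and 12.3 RPKM, *Vegfc* at 1.01 and 0.633 RPKM and *Pgf* at 1.78 and 1.73 RPKM, and the intervals of these 4 ligands include 0. Of the angiopoietins, *Angpt2* was at 3.27 and 3.39 RPKM, *Angpt4* at 1.05 and 1.33 RPKM and *Angpt1* at 0.672 and 0.547 RPKM, again with intervals that include 0. The co-receptors *Nrp1* and *Nrp2* were at 12.0 and 12.6 RPKM and at 3.88 and 4.38 RPKM. In all, 9 of these 11 genes passed the filter, 7 of the 9 were above 0 and none was past 1.5-fold, with a median of 0.082. The share above 0 follows in part from the filter. *Vegfc* and *Angpt1*, which did not pass, were below 0 at −0.30 and −0.11 on the RPKM + 1 scale. *Flt4* passed only through the *Bcas2F/-;Vasa-Cre* library. Without the filter the median was 0.066.

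Of the 10 arterial, venous and Notch genes, 8 were below 0 and *Hey1* alone was past 1.5-fold on the RPKM + 1 scale. *Hey1*, a transcription factor induced by Notch, was at 6.02 RPKM (264 reads) in the control and 3.57 RPKM (152 reads) in the *Bcas2F/-;Vasa-Cre* library, a log2 ratio of RPKM + 1 of −0.62. The interval of its RPKM ratio ran from −1.05 to −0.46. *Notch4*, a Notch receptor found mainly in endothelium, was at 4.38 RPKM (135 reads) and 2.81 RPKM (84 reads). Its log2 RPKM ratio without the pseudocount was −0.64, also past 1.5-fold, with an interval from −1.05 to −0.24. *Dll4*, the arterial Notch ligand, was at 1.94 and 1.49 RPKM, and its interval from −0.87 to 0.10 includes 0. *Notch1* and the arterial ligand *Efnb2* differed less, at 22.5 and 23.1 RPKM and at 6.26 and 5.97 RPKM. *Nr2f2*, the vein-specifying nuclear receptor, which is also present in interstitial cells of the testis, was at 33.1 and 39.3 RPKM, with an interval from 0.16 to 0.33. The median of the list was −0.077, and it was 0.012 with a filter of 5 RPKM. Other cells of the testis express Notch genes, and their part in these values was not tested.

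Of the partners of von Willebrand factor, only *F8*, a clotting factor made by endothelial cells, passed the filter. It was at 1.46 RPKM (133 reads) in the control and 2.09 RPKM (185 reads) in the *Bcas2F/-;Vasa-Cre* library, with an interval from 0.19 to 0.85. *Adamts13*, the protease that cleaves VWF, had 7 and 3 reads, and *Selp*, stored with VWF in granules, 22 and 17 reads. Of 5 lymphatic markers 3 passed the filter. *Lyve1* was at 3.02 and 3.71 RPKM and *Ccl21a* at 6.17 and 5.89 RPKM, both with intervals that include 0. *Prox1* was at 0.399 and 0.523 RPKM, and *Pdpn* was listed at 0 in both libraries. All 7 pericyte genes passed the filter and none was past 1.5-fold. The most abundant, *Mcam*, which endothelial cells also carry, was at 85.5 and 66.7 RPKM, with an interval from −0.44 to −0.28. *Pdgfrb*, the defining receptor of pericytes, was at 5.24 and 4.31 RPKM with an interval from −0.46 to −0.10, whereas *Rgs5* was at 23.9 and 24.6 RPKM.

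Some of the 10 genes are also expressed by blood cells, and most blood cell markers were lower in the *Bcas2F/-;Vasa-Cre* library. All 4 neutrophil genes over the filter, of 6 listed, were more than 1.5-fold lower, against 1.69% of all genes over the filter. *S100a8*, *S100a9* and *Ngp* passed it only through the control, at 0.660, 0.401 and 0.255 RPKM in the *Bcas2F/-;Vasa-Cre* library. This count thus follows in part from the filter. Without the filter, the 6 genes together added up to 26.3 RPKM in the control and 3.22 RPKM in the *Bcas2F/-;Vasa-Cre* library. *S100a9* was at 9.83 RPKM (101 reads) and 0.401 RPKM (4 reads). Of the 6 red cell genes, *Slc4a1*, the anion exchanger of red cells, was at 15.7 and 0.607 RPKM, *Hbb-bt* at 42.4 and 20.3 RPKM, and *Hbb-bs* at 551 and 596 RPKM. *Slc4a1*, too, passed the filter only through the control. The red cell genes added up to 980 RPKM in the control and 944 RPKM in the *Bcas2F/-;Vasa-Cre* library. The platelet and megakaryocyte list added up to 22.9 RPKM in the control and 18.5 RPKM in the *Bcas2F/-;Vasa-Cre* library, 6 genes with 2 over the filter. Most of that sum was *Pf4*, at 18.5 and 15.4 RPKM. The defining platelet gene *Itga2b* was at 2.82 and 2.01 RPKM, and *Gp9* had 3 reads and 1 read. The intervals of *Pf4*, from −0.57 to 0.026, and of *Itga2b*, from −1.08 to 0.10, include 0. A difference in platelet genes was thus not resolved from counting error. The 5 macrophage and leukocyte genes were all below 0, with a summed RPKM of 20.7 and 16.9. *Pecam1*, *Vwf* and *Esam*, expressed in platelets, megakaryocytes or leukocytes as well, had ratios of −0.14, −0.26 and 0.17, all with intervals that include 0. The part of blood cells in the values of these 3 genes was not tested. The other 7 endothelial genes had ratios from −0.41 for *Egfl7* and −0.30 for *Tek* to 0.12 for *Flt1*. Whether cells other than endothelium add to the values of these 7 genes was not tested either.

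**Figure D4:**
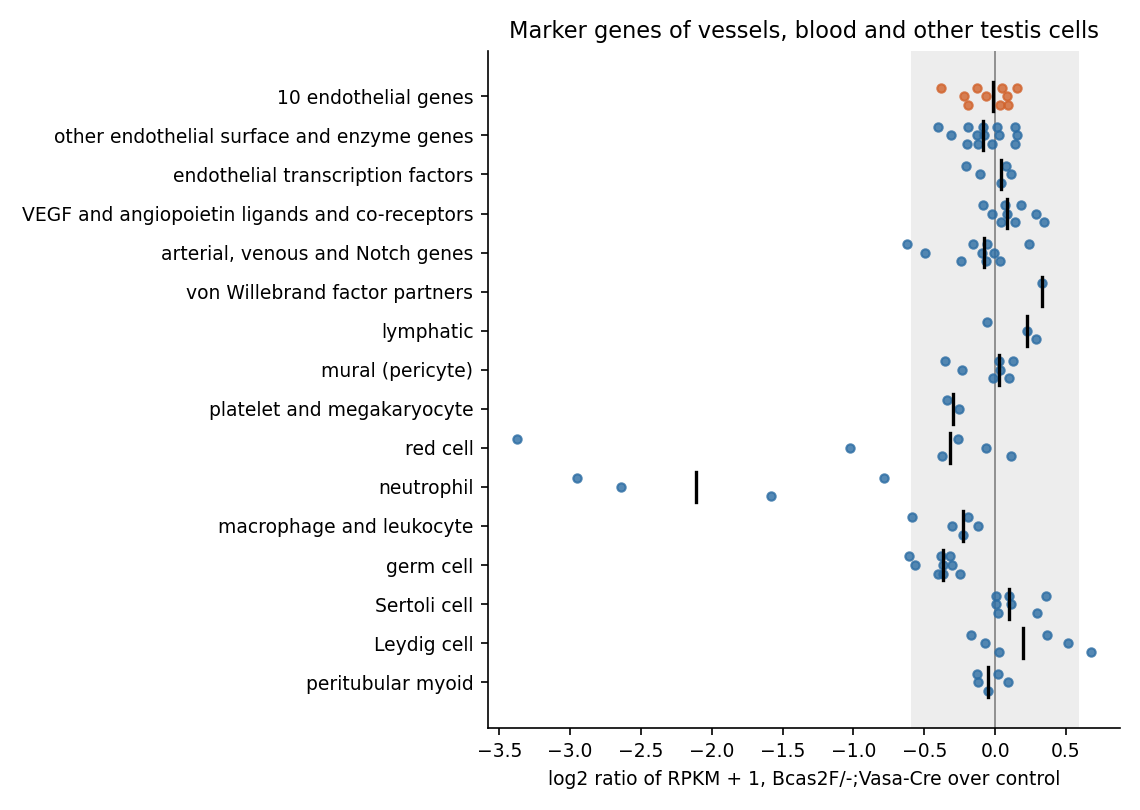
Log2 ratio of RPKM + 1 (*Bcas2F/-;Vasa-Cre* over control) for each gene over the filter in the 10 endothelial genes (orange) and in lists of related genes and other cell types (blue). Black bars are list medians and the grey band is 1.5-fold in either direction. The lowest neutrophil gene, *S100a9*, is at −2.95 and the lowest red cell gene, *Slc4a1*, at −3.38. Both passed the filter only through the control, and the median of the red cell list is −0.32. The endothelial genes lie between −0.38 and 0.16.

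Markers of the other testis cells moved in both directions. All 9 germ cell genes were below 0, against 46.3% of all genes over the filter, with a median log2 ratio of −0.37. *Stra8*, the retinoic acid target of meiotic entry, was past 1.5-fold on the RPKM + 1 scale at 87.2 and 56.8 RPKM. The study's real-time RT-PCR at this age reported *Stra8*, *Kit*, *Dazl* and *Ddx4* (*Mvh*) as similar between the groups. It reported *Dmc1*, *Sycp1* and *Sycp3* as significantly lower in *Bcas2F/-;Vasa-Cre* testes. That measure had replicates and *Gapdh* as internal control, whereas RPKM are shares of 1 library per genotype. Here *Kit*, *Dazl* and *Ddx4* were within 1.5-fold, at −0.37, −0.40 and −0.25 on the RPKM + 1 scale. All 7 Sertoli cell genes over the filter were above 0, with a median of 0.096, and *Rhox5* was listed at 0 in both libraries. The intervals of *Gata4*, *Fshr* and *Cldn11* include 0, and those of the other 4 lie wholly above 0, against 19.9% of all genes with recovered reads. Of the 6 Leydig cell genes 4 were above 0, with a median of 0.20, and intervals lay wholly above 0 for 2 and wholly below 0 for 1. *Cyp17a1* was past 1.5-fold at 94.8 and 152 RPKM, whereas *Hsd3b1*, the most abundant of them, was at 189 and 168 RPKM, with an interval from −0.23 to −0.12. The 5 peritubular myoid genes had a median of −0.049. RPKM are shares of a library, and the part of the composition of the testis in the endothelial values was not tested. The 10 endothelial genes had a summed RPKM far below that of the Sertoli cell list, 2068 and 2222 RPKM, and of the germ cell list, 741 and 571 RPKM. Most of the Sertoli cell sum was *Aard*, at 1379 and 1475 RPKM. Such sums depend on the genes listed and do not measure the share of each cell type.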

How the data were processed

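Testes of 9-day-old mice gave 1 library per genotype. The authors removed adaptor and low-quality sequence from paired-end reads, mapped them with TopHat2 2.0.9 (mm10 per the labels), used HTSeq for counting, and deposited the result as RPKM, zeros included. The annotation release behind them is not given in the sources used here. Of 39695 entries, 37606 (94.7%) had an identifier in GENCODE M21 (GRCm38), the source of symbols, positions and transcripts. Promoter and microRNA sequences are from RefSeq (GRCm38.p6).

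The change of a gene was the log2 ratio of RPKM + 1, *Bcas2F/-;Vasa-Cre* over control, which understates changes of low genes. The 14831 genes whose RPKM averaged 1 or more were the background, and 1.5-fold was the threshold. Whole reads were recovered from the RPKM steps: the ratio of the libraries was a ratio of whole reads within a relative tolerance of 2e-08 for 21081 of 22040 genes (95.6%) above 0 in both. Library sizes came from 1240 genes with a single transcript, of which 533 agreed, and a whole factor was chosen so that the implied length was a whole number nearest to the mean transcript length in M21. Where the authors' annotation held other transcripts, recovered reads may be off by that factor, and among the 10 genes *Cdh5* and *Emcn* depend on it most. Log2 RPKM ratios without a pseudocount have 95% Clopper-Pearson intervals, levels have exact Poisson intervals, and both cover counting error only. The procedures were tested on simulated libraries, which were built with the same M21 lengths that the recovery used. That test cannot show errors from a differing annotation. Among the 10 genes, 4 had an implied length within 1% of the M21 mean. No count model was run, and no p-value is given.

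The members and lists were chosen with earlier results of these data known. The rule for named genes took all 10 members, *Bcas2*, all ligands and co-receptors, and from every other list the genes past 1.5-fold, the most abundant gene and defining markers, of which some in the lists of other cell types are given only as counts and sums. *Plvap*, *Sox18*, *Notch1*, *Notch4*, *Dll4*, *Efnb2* and the genes listed at 0 were named after their values were seen. The alternatives were 0.1 or 0.01 as pseudocount, centring of the log2 ratios on a median of 0, rescaling of RPKM to a sum of 1000000, no filter, a filter of 5 RPKM, and the ratio of reads, with 0 reads set to 0.5. Scripts ran in Python 3.11.15. They used pandas 2.3.3 for tables, scipy 1.17.1 and numpy 2.4.6 for intervals, and matplotlib 3.10.9 for plots.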

Additional observations from a re-analysis of the deposited data

How the results depend on the processing

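No endothelial gene passed 1.5-fold in either direction under any of the 7 alternatives, and each of the 10 genes kept its sign wherever it passed the filter. *Egfl7* ranged from −0.41 to −0.36 and *Tek* from −0.30 to −0.22. Counting intervals were not computed again under the alternatives. The summed RPKM of all entries had a log2 ratio of −0.028, farther from 0 than the upper end of the *Tek* interval, −0.00066. That the *Tek* interval lies wholly below 0 thus depends on how the libraries are scaled. The median of the 10 genes ranged from −0.062 to 0.013, and was above 0 only with RPKM rescaled to a common sum. With a mean RPKM of at least 5, 5 of the 10 genes were left, 3 of them below 0. The counts over all genes depended on the setting. More than 1.5-fold lower and higher were 457 and 454 genes with a pseudocount of 0.1, 485 and 491 with 0.01, 468 and 511 without a filter, 104 and 46 with a mean RPKM of at least 5, and 475 and 438 with the ratio of reads. After rescaling, 356 genes were lower and 434 higher, and 40.7% of genes were below 0, and without a filter 28.7% were below 0, where entries at 0 in both libraries are counted. The cause was not tested. Among the other lists, the medians of the transcription factors, the arterial, venous and Notch genes, the partners of von Willebrand factor, and the lymphatic and pericyte genes changed sign under at least 1 alternative, and the rest under none. With 1 library per genotype no library could be left out. No paired analysis was possible because each group has a single library. Depth limits the precision: 108 to 213 reads for *Emcn*, *Flt1*, *Tie1*, *Vwf*, *Esam* and *Tek* leave intervals that reach from 0.60 below to 0.48 above 0 on the log2 scale.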
